A study of Mus musculus with 23 samples.

Results

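The genes described here are 10 products of the Paneth cell, chosen by name from 55487 annotated mouse genes in the count file: Lyz1, the alpha-defensins Defa5, Defa17, Defa22, Defa24 and Defa26, and Nupr1, Mmp7, Itln1 and Ang4. All 10 passed the filter on low counts, Defa22 only narrowly, and were tested among 17236 genes. The samples were 23 RNA-seq libraries of whole jejunum, the middle stretch of the small intestine, with fat and Peyer's plaques removed. They came from 11 Cpa3Cre/+ mice, which the series' design text calls mast cell-deficient and which carry Cre in 1 copy of the gene of the mast cell protease carboxypeptidase A3, and from 12 wild-type Cpa3+/+ mice. Each genotype was sampled in 5 states. Naive mice were untreated (n = 2 for Cpa3Cre/+ and 3 for Cpa3+/+). Immunized mice had been given 25 µg ovalbumin with 2 mg alum into the peritoneum on days 0 and 14 (n = 2 and 2). Challenged mice were immunized in the same way and from day 20 could choose between water and water holding 20% egg white and 8% sugar, and were sampled on challenge day 1 (n = 2 and 3), day 3 (n = 2 and 2) and day 5 (n = 3 and 2). The Cre allele was present in every Cpa3Cre/+ mouse and absent from every Cpa3+/+ mouse, and the labels name neither strain, age, litter nor the position along the jejunum that was taken. Of the 23 mice, 18 were female and 5 male. The males were spread unevenly: Cpa3Cre/+ mice had 1 male among 2 in every state except day 5, where all were female. Among Cpa3+/+ mice only 1 of the 3 naive animals was male. Sex was thus partly tied to genotype. The levels given for single libraries are not adjusted for sex, while the main edgeR fit held a term for it. Each library is labelled as a separate replicate, but nothing says more about the animals, so a p-value is measured against library-to-library spread that may be partly technical.

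Paneth cells sit at the base of the crypts of the small intestine, next to the stem cells, and discharge granules of antimicrobial proteins into the crypt lumen. Lysozyme cuts the peptidoglycan of bacterial walls, and the alpha-defensins, in mice also called cryptdins, are small cysteine-rich peptides that disrupt bacterial membranes after the protease Mmp7 has cut off their pro-piece. The alpha-defensin genes lie in a cluster on chromosome 8, in many near-identical copies whose number and sequence differ between inbred mouse strains. Itln1 encodes intelectin, a lectin that binds microbial sugars, Ang4 encodes a ribonuclease-family angiogenin with antimicrobial activity, and Nupr1 encodes a small stress-responsive nuclear protein that is also listed among Paneth cell transcripts.

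In the GRCm38 annotation, the members are protein-coding genes at chr10:117287797-117292868 on the minus strand (Lyz1), chr8:21297439-21298375 (Defa5), chr8:21655780-21656735 (Defa17), chr8:21162277-21163249 (Defa22), chr8:21734494-21735471 (Defa24) and chr8:21618183-21618972 (Defa26), the 5 defensins all on the plus strand. Nupr1 lies at chr7:126623249-126630861 on the minus strand, Mmp7 at chr9:7692090-7699585 on the plus strand, Itln1 at chr1:171518122-171535294 and Ang4 at chr14:51763878-51773590, both on the minus strand. The end of the coding sequence carries the mature peptide of an alpha-defensin, so the last 120 coding bases are given for the 5 defensins and for Defa21, the neighbour closest to Defa22. Letters are from the GENCODE M21 transcripts, 5′ to 3′, and capitals mark the bases that differ from Defa24, the most abundant of them.
Defa24: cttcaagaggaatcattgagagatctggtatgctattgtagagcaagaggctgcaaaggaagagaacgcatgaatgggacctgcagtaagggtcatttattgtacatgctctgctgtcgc
Defa17: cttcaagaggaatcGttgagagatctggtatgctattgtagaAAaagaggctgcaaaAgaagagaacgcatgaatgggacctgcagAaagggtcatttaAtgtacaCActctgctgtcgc
Defa26: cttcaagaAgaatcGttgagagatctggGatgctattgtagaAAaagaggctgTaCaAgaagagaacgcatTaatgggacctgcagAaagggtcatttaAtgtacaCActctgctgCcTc
Defa5: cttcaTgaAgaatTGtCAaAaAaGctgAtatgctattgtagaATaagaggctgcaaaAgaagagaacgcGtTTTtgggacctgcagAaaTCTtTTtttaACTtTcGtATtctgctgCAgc
Defa22: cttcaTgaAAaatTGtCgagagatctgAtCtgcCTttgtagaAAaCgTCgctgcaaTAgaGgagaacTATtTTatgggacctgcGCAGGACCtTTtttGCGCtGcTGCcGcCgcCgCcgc
Defa21: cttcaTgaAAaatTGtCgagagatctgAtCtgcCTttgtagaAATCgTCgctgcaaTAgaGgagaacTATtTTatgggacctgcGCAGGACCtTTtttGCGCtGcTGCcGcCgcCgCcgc
Over these 120 bases, Defa17 differed from Defa24 at 8, Defa26 at 15, Defa5 at 32, Defa22 at 45 and Defa21 at 46. Defa22 and Defa21 differed from each other at 2 of the 279 bases of the whole coding sequence, an identity of 99.3%, and Defa17 had the same coding sequence as Defa3. Of all windows of 50 bases in each gene's transcript, the share found in no other gene's transcript was 0.306% for Defa5, 8.05% for Defa17, 25.1% for Defa22, 59.8% for Defa26 and 71.9% for Defa24. It was 83.9% for Lyz1, whose neighbour Lyz2 is 95.0% identical in its coding sequence, 92.6% for Mmp7, 95.3% for Ang4, 99.0% for Itln1 and 100% for Nupr1. How the submitters' counting treated reads that fit several genes is not given in the sources used here, so the split of reads among the defensins, and above all the counts of Defa5 and Defa17, is uncertain.

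Library totals ran between 5476308 and 19342046 counts. Cpa3, the gene that carries the Cre, lay between 0.101 and 1.51 CPM (counts scaled to 1000000 per library, with TMM factors) in the 11 Cpa3Cre/+ libraries and between 0.827 and 22.1 CPM in the 12 Cpa3+/+ libraries, and the ranges overlapped. The summed level of 9 mast cell genes lay between 21.3 and 125 CPM in the Cpa3Cre/+ libraries and between 42.1 and 615 CPM in the Cpa3+/+ libraries. Libraries that stand apart on the first principal components were Cpa3Cre/+ naive replicate 1, Cpa3+/+ day 1 replicate 2 and Cpa3Cre/+ day 5 replicate 3, and values without them are given beside the results they move.

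Per kilobase of exon, Defa24 was the most abundant member, with a mean of 12014 ± 4762 CPM per kilobase (SD, n = 23 libraries), followed by Lyz1 with 4191 ± 1896, Itln1 with 1600 ± 750, Defa17 with 485 ± 211, Ang4 with 356 ± 358, Mmp7 with 111 ± 51.3 and Defa5 with 64.5 ± 33.1. Defa26 averaged 15.4 ± 19.7, Nupr1 8.61 ± 3.27 and Defa22 7.62 ± 35.5 CPM per kilobase. Defa24 lay above Lyz1, Lyz1 above Itln1, Itln1 above Defa17 and Ang4 above Mmp7 in each of the 23 libraries. The neighbours whose order changed most often were Defa17 and Ang4, with Defa17 the higher in 18 of 23 libraries, and Defa26 and Nupr1, with Defa26 the higher in 16. Length here counts every annotated exon of a gene, 2514 bases for Nupr1 against 829 in the transcript used for the windows above. The place of Nupr1 below Defa26 therefore depends on the length taken, while the other members had the same length in both. The place of Defa22 rests on 1 library, since its median was 0.166 CPM per kilobase.

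**Figure D1:**
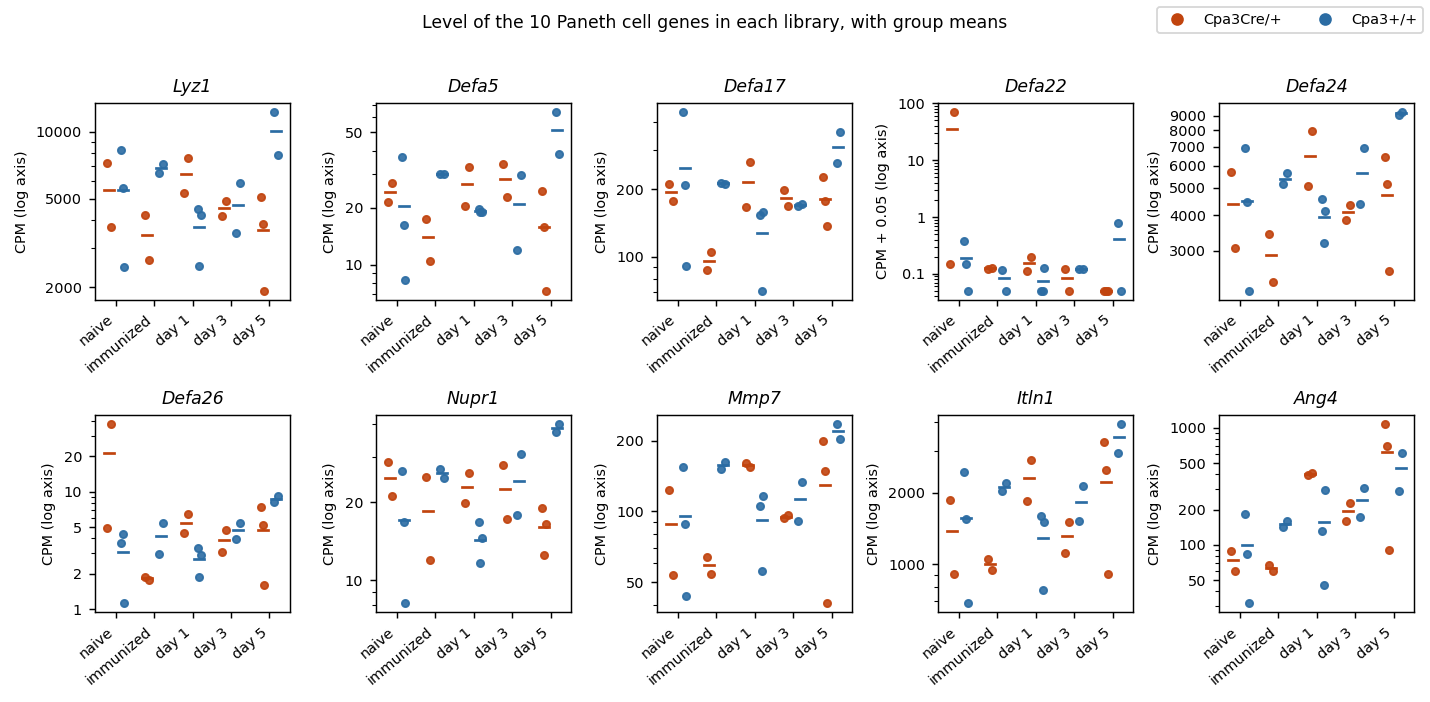
Level of each of the 10 genes in every library, in CPM on a log axis, by state along the horizontal axis and by genotype in colour, with a bar for the group mean (Defa22 is drawn with 0.05 CPM added so that libraries at 0 appear). Lyz1, Defa24, Itln1 and Mmp7 share their high and low libraries, Ang4 is highest on day 5 at 1084 CPM, and Defa22 reaches 71.5 CPM in 1 library.

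Across all libraries, 6 of the other 9 members went largely with Lyz1, though not within every group. Lyz1 itself was at 7246 and 3742 CPM in naive Cpa3Cre/+ jejunum, against 8298, 5610 and 2458 CPM in naive Cpa3+/+ jejunum. After immunization it was at 4248 and 2648 CPM in Cpa3Cre/+, against 6518 and 7173 CPM in Cpa3+/+ libraries. On challenge day 1 it was at 5287 and 7655 CPM in Cpa3Cre/+, against 4518, 2494 and 4236 CPM in Cpa3+/+ libraries. The genotypes did not overlap in either of these states, and the one that was higher changed between them. On day 3 the Cpa3Cre/+ libraries held 4203 and 4871 CPM of Lyz1, against 3519 and 5907 CPM in the Cpa3+/+ libraries. On day 5 they held 5095, 3857 and 1927 CPM, against 12324 and 7903 CPM in Cpa3+/+ libraries. Day 5 held both the lowest Lyz1 level of the series, in Cpa3Cre/+ replicate 3, and the highest, in Cpa3+/+ replicate 1. Between the 2 Cpa3+/+ libraries of that day, Defa24 (9062 and 9296 CPM), Itln1 (2941 and 3911 CPM) and Defa17 (261 and 358 CPM) ran the other way from Lyz1.

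The 6 were Defa24, Mmp7, Defa5, Itln1, Nupr1 and Defa17. Across the 23 libraries, on the scale of log2(CPM + 1), Pearson's r with Lyz1 was 0.901 for Defa24, 0.863 for Mmp7, 0.859 for Defa5, 0.818 for Itln1, 0.799 for Nupr1 and 0.786 for Defa17. It was lower for Ang4, at 0.506, and for Defa26, at 0.458, and close to 0 for Defa22, at -0.0393. These are descriptions over libraries that share their scaling, and the members were picked as genes of 1 cell type. The 5 genes outside the members whose pattern was most like that of Lyz1, by r over the same libraries, were Pla2g2a, a secreted phospholipase of Paneth cell granules, with an r of 0.898, then Samd5 (0.894), Habp2 (0.893), Pla2g2f (0.887) and Bambi (0.876).

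Counted per 1000 Lyz1 counts of the same library, the followers varied less than in CPM. They were named for their r with Lyz1 over the same libraries, so this is in part built in. Defa24 lay between 735 and 1342 counts per 1000 Lyz1 counts, a range of 1.83 times, while its CPM ran between 2167 and 9296. Itln1 lay between 239 and 649, Mmp7 between 14.3 and 39.1, Nupr1 between 3.00 and 8.55, Defa5 between 2.89 and 8.10 and Defa17 between 20.5 and 71.1 counts per 1000 Lyz1 counts, ranges of 2.72, 2.74, 2.85, 2.80 and 3.46 times. The SD of the log2 ratio of Defa24 to Lyz1 was 0.282, against 0.585 for its log2 level. For the other followers the SD of the ratio ran from 0.374 for Mmp7, against 0.733 for its level, to 0.416 for Defa17, against 0.612. For Nupr1 it was 0.395, against 0.542. Bulk tissue cannot tell fewer Paneth cells from less RNA of these genes per Paneth cell.

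The shared level moved with markers of other cells. Lyz1 was low where the summed level of 15 enterocyte genes was high: Cpa3Cre/+ day 5 replicate 3, Cpa3+/+ naive replicate 3, Cpa3+/+ day 1 replicate 2 and Cpa3Cre/+ immunized replicate 2, the 4 libraries with the least Lyz1, held 109142, 93931, 90588 and 88248 CPM of enterocyte genes, against a median of 58009 CPM over all 23. Pearson's r of log2 Lyz1 with the log2 enterocyte sum was -0.751 (permutation test with 100000 resamples, two-sided, p = 4e-05, adjusted p = 0.000385 over the 11 lists related to Lyz1) and Spearman's rho was -0.850 (p = 1e-05, the smallest these permutations can give, adjusted p = 0.00011). Without the 2 libraries farthest from the median enterocyte sum, r was -0.866, and within the genotypes it was -0.760 in Cpa3Cre/+ and -0.916 in Cpa3+/+ libraries. For 11 stem cell genes r was 0.729 (permutation p = 0.00016, adjusted p = 0.000587) and rho 0.635 (p = 0.00174, adjusted p = 0.00479), with 0.622 after the 2 farthest libraries were left out, 0.666 within Cpa3Cre/+ and 0.797 within Cpa3+/+. For 10 smooth muscle genes r was 0.554 (permutation p = 0.00586, adjusted p = 0.0107) and rho 0.569 (p = 0.0051, adjusted p = 0.0105), with 0.647 without the 2 farthest libraries, 0.506 within Cpa3Cre/+ and 0.811 within Cpa3+/+. Stem cell and smooth muscle transcripts were thus higher where Lyz1 was higher, and enterocyte transcripts lower. For these and the other lists the permutations ran over all 23 libraries and ignored the 10 groups. The p-values therefore take the libraries as exchangeable, which differences between groups would break. Lyz1 and the sums also share the scaling of each library.

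Of the other lists, 3 fat cell genes gave an r of -0.735 (permutation p = 7e-05, adjusted p = 0.000385) and a rho of -0.720 (p = 0.00023, adjusted p = 0.000843), with -0.674 without the 2 farthest libraries, but -0.250 within Cpa3Cre/+ against -0.916 within Cpa3+/+ libraries. For 7 genes higher on the duodenal side of the gut, r was -0.674 (permutation p = 0.00042, adjusted p = 0.00115) and rho -0.741 (p = 5e-05, adjusted p = 0.000275), with -0.750 without the 2 farthest libraries, -0.676 within Cpa3Cre/+ and -0.664 within Cpa3+/+. For 12 enteroendocrine genes, r was -0.654 (permutation p = 0.00069, adjusted p = 0.00152) and rho -0.564 (p = 0.00572, adjusted p = 0.0105), with -0.495, -0.566 and -0.752 in the same order. For 17 proliferation genes r was 0.507 (permutation p = 0.0134, adjusted p = 0.0211) and rho 0.385 (p = 0.0708, adjusted p = 0.111), but r was 0.208 without the 2 farthest libraries, both Cpa3+/+ on day 5, so that relation rests on them. The goblet, tuft, B cell follicle and ileal side lists gave r between -0.363 and 0.163 and did not pass the threshold. Lyz1 was thus also lower where fat cell, duodenal side and enteroendocrine transcripts were higher. The level in CPM of any gene falls where a few others take a larger share of the counts, and the part of tissue composition in the differences below was not tested.

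**Figure D2:**
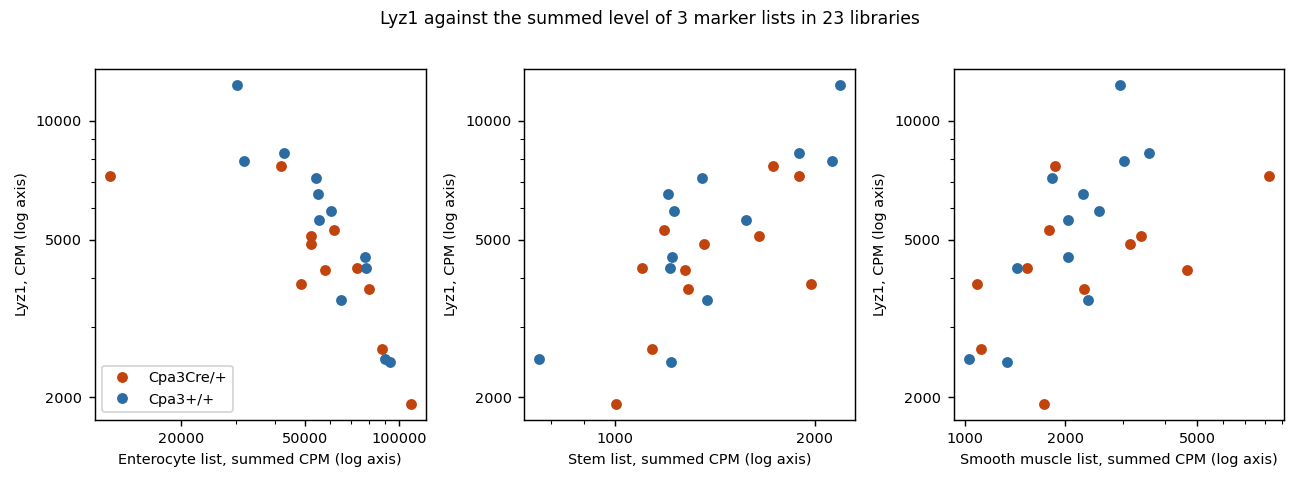
Level of Lyz1 (CPM, log axis) against the summed level of the enterocyte, stem cell and smooth muscle lists (CPM, log axes), 1 point per library, coloured by genotype. Lyz1 falls as the enterocyte sum rises (r = -0.751, n = 23) and rises with the stem cell sum (r = 0.729), and the library with the highest smooth muscle sum, Cpa3Cre/+ naive replicate 1 at 8263 CPM, has the lowest enterocyte sum, 11799 CPM.

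Defa22 did not follow Lyz1 and was abundant in a single library. Cpa3Cre/+ naive replicate 2, from a male mouse, held 710 Defa22 counts, or 71.5 CPM, while the other Cpa3Cre/+ naive library held 0.0975 CPM and the 3 Cpa3+/+ naive libraries 0.331, 0.0966 and 0 CPM. Outside that library the highest value was 0.724 CPM, 9 counts in Cpa3+/+ day 5 replicate 1, and this second library carried the gene past the filter. Per 1000 Lyz1 counts, Defa22 was at 19.1 in Cpa3Cre/+ naive replicate 2 and between 0 and 0.0588 in the other 22 libraries. Lyz1 in that library was 3742 CPM, inside the range of the others, and Defa24 and Itln1, at 3069 and 907 CPM, were also inside theirs.

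Defa26 showed the same library high, by a smaller margin. It was at 37.9 CPM in Cpa3Cre/+ naive replicate 2 and 4.88 CPM in replicate 1, against 3.64, 4.35 and 1.12 CPM in naive Cpa3+/+ libraries. Per 1000 Lyz1 counts it was at 10.1 there, against 0.438 to 1.46 in the other 22 libraries. That spread among the 22 is near that of Defa17, and far below the one of Ang4.

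The same library differed in a subset of the cluster's genes. Of 46 annotated genes of the cluster, 18 had at least 50 counts over the other 22 libraries, and per Lyz1 count 5 of these 18 lay above all others in Cpa3Cre/+ naive replicate 2, 2 lay below them and 11 inside their range. Such counts were not particular to it: Cpa3Cre/+ day 5 replicate 2 was also highest for 5 of the 18, and Cpa3Cre/+ immunized replicate 1 and Cpa3+/+ day 5 replicate 1 were each lowest for 4. More than 4-fold from the median of the others were 2 of the 18 in Cpa3Cre/+ naive replicate 2, Defa26 with 377 counts and the pseudogene Defa-ps7 with 17, and 0 in each of the other libraries. A further 3 genes, Defa20, Defa21 and Defa22, reached 50 counts through this library alone. Defa21, 2 coding bases away from Defa22, held 1023 counts there, against at most 1 count in any other library. Defa20 held 60 counts there against 0 in each of the others, where a count of 0 allows up to 3 counts. The other genes above the range of the others were Gm14851, at 94.4 counts per 1000 Lyz1 counts against 8.03 to 50.1 elsewhere, Defa3, at 2.26 against 0.260 to 1.26, and the pseudogenes Defa-ps6 and Defa-ps7. Defa35 lay below, at 37.9 against 68.1 to 150, as did Defa31, at 1.45 against 1.66 to 4.59. Defa24, the main defensin, lay inside the range, at 820 against 735 to 1342, as did Defa5 at 7.21 and Defa17 at 47.2.

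The whole count file was then searched for genes counted in 1 library alone. Genes with at least 20 counts in 1 library and at most 2 in each of the others numbered 4 in Cpa3Cre/+ naive replicate 2, all of them in the defensin cluster: Defa21, Defa20, Defa2 with 28 counts and the pseudogene Defa-ps18 with 21. Defa20 and Defa2 differ at 1 of 285 coding bases and have 0% of 50-base windows to themselves, as has Defa31, so which of the near-identical copies those reads came from is not resolved. They numbered 1 in Cpa3Cre/+ day 5 replicate 2, the chitinase-like gene Chil4, and 0 in each of the other 21 libraries. Genes with at most 1 count in 1 library and at least 15 in each of the others numbered 3 in Cpa3+/+ day 1 replicate 2, 1 in Cpa3Cre/+ naive replicate 2 and 0 elsewhere. Among the 5 defensin members, Defa24, Defa17 and Defa5 went with Lyz1 across the libraries, while Defa22 and Defa26 owed their Cpa3Cre/+ naive means of 35.8 and 21.4 CPM to 1 animal.

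**Figure D3:**
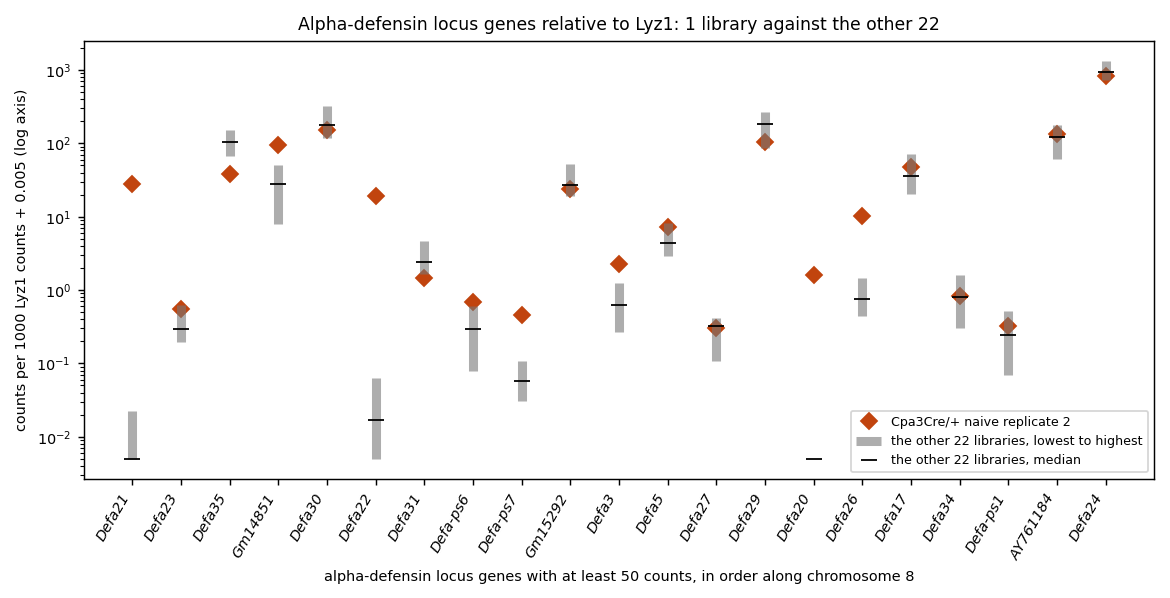
Counts per 1000 Lyz1 counts (with 0.005 added, log axis) of the 21 cluster genes with at least 50 counts over all libraries (Defa20, Defa21 and Defa22 only through the library drawn as diamonds), in their order along chromosome 8: diamonds are Cpa3Cre/+ naive replicate 2, grey bars the range of the other 22 libraries and black ticks their median. Defa21, Defa22, Defa20 and Defa26 lie far above the bars, Defa35 lies below its bar, and Defa24 lies inside it at 820.

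RefSeq promoters of 250 bases before and 50 after the start (GRCm38.p6) were at hand for 6 of the 10 members. That of Defa22, at chr8:21162027-21162326 on the plus strand, is shown because it was the same, base for base, in Defa21, and differed at 7 of 300 bases in Defa20 and in Defa2, genes that were counted in the same library. Capitals mark matches to CTTTGAT, the core of the Wnt/TCF motif, or its reverse complement, and to TATAAA.
Defa22 promoter: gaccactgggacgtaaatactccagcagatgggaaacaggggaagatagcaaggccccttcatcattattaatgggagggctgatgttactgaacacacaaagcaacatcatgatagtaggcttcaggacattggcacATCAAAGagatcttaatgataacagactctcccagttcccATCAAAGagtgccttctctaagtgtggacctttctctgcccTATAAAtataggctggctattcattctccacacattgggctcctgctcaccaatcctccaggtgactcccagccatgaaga
The Defa22 window held 2 matches to CTTTGAT and 1 to TATAAA, with both strands searched and no overlap between them. Among 32851 promoters, 3.73% held CTTTGAT and 13.6% held TATAAA. The first Mmp7 window held 1 and 2 matches, and the windows of Lyz1, Nupr1, Itln1 and Ang4 held neither motif in these letters.

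Between the genotypes, no member passed the test at an adjusted p under 0.05 in any state (edgeR quasi-likelihood, Benjamini-Hochberg over 17236 genes), and DESeq2 called none either. With no filter on low counts edgeR called up to 4 of 10 in a state, and those calls are given with the other alternatives below. Averaged over the 5 states, 0 of 10 members were called, against 0.029% of all genes, and 0 had an unadjusted p under 0.05, against 1.12% of all genes. The members' median log2 fold change was -0.17, against 0.03 over all genes, and 8 of 10 were negative. These include Defa22, whose sign was not stable (-1.19 ± 1.44 by edgeR, 1.14 by DESeq2). Outside Cpa3Cre/+ naive replicate 2 that gene held at most 9 counts. Its sign therefore carries no meaning where positive and negative members are counted below. Lyz1 differed by -0.25 ± 0.29 (log2, SE, adjusted p = 1 by edgeR), Defa24 by -0.24 ± 0.26 and Itln1 by -0.18 ± 0.29. With 2 or 3 libraries a group, differences of these sizes were within the spread between libraries.

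In naive jejunum the 7 genes Lyz1, Defa5, Defa17, Defa24, Mmp7, Itln1 and Ang4 differed by between -0.29 and 0.31 on the log2 scale, and Nupr1 by 0.62 ± 0.40. Defa22 (6.85 ± 2.03, unadjusted p = 0.00396, adjusted p = 0.90 by edgeR) and Defa26 (2.50 ± 0.76, unadjusted p = 0.00407, adjusted p = 0.90) were the 2 of 10 members with an unadjusted p under 0.05, against 5.34% of all genes, and 0% of genes were called. The fitted value of Defa22 depends on the prior count of the fit and is no bound. Without Cpa3Cre/+ naive replicate 2 it was -0.49, and with female libraries alone, which also leave out that library, -0.98. Both rest on 1 count in the Cpa3Cre/+ naive library that is left. Without Cpa3Cre/+ naive replicate 1, which leaves replicate 2 as the whole group, it was 9.80. The Defa26 difference was 0.59 without Cpa3Cre/+ naive replicate 2 (adjusted p = 0.663 by edgeR). After immunization all 10 fitted differences were negative by edgeR, with a median of -0.98 against 0.02 over all genes. That of Defa22 was -2.15 ± 4.16 by edgeR but 1.12 by DESeq2. Defa17 was at 87.2 and 105 CPM in immunized Cpa3Cre/+ and at 214 and 210 CPM in immunized Cpa3+/+ jejunum, and the groups did not overlap. Mmp7 was at 64.2 and 54.3 CPM in Cpa3Cre/+ and at 151 and 163 CPM in Cpa3+/+ libraries. Lyz1, Defa5, Defa24, Defa26, Itln1 and Ang4 did not overlap there either, and the share of all genes without overlap was not counted. None of the 10 had an unadjusted p under 0.05 there, against 0.951% of all genes, and 0% of genes were called by edgeR.

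On challenge day 1 the order was the other way, with 9 of 10 fitted differences positive and a median of 0.89 against 0.02 over all genes. Mmp7 was at 161 and 155 CPM in Cpa3Cre/+ and at 105, 55.9 and 116 CPM in Cpa3+/+ jejunum. Itln1 was at 1845 and 2765 CPM in Cpa3Cre/+ and at 1596, 776 and 1505 CPM in Cpa3+/+ libraries. Ang4 was at 395 and 409 CPM in Cpa3Cre/+ and at 131, 45.4 and 297 CPM in Cpa3+/+ libraries, a log2 difference of 1.56 ± 0.84 (adjusted p = 0.635 by edgeR). For these 3 genes the Cpa3Cre/+ libraries lay above all Cpa3+/+ libraries. So they did for Lyz1, Defa5, Defa17, Defa24, Defa26 and Nupr1, and the share of all genes without overlap was not counted. For Mmp7, Itln1 and Ang4, replicate 2 was the lowest of the Cpa3+/+ libraries. Without that replicate the log2 differences were 0.80 for Mmp7, 0.78 for Itln1 and 1.12 for Ang4, against 1.05, 1.03 and 1.56 with it, and without Cpa3Cre/+ day 1 replicate 2 that of Itln1 was 0.49. In that state 0 of 10 members had an unadjusted p under 0.05, against 7.39% of all genes, with 0% called. On day 3 the differences fell on both sides, 5 positive and 5 negative, and 0 of 10 had an unadjusted p under 0.05, against 1.55% of all genes, with 0% called.

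On day 5, 9 of 10 fitted differences were negative, with a median of -0.92 against -0.03 over all genes. Defa5 was at 24.6, 15.8 and 7.25 CPM in Cpa3Cre/+ and at 64.4 and 38.4 CPM in Cpa3+/+ libraries, a log2 difference of -1.69 ± 0.52 (unadjusted p = 0.00446, adjusted p = 0.524 by edgeR). Nupr1 was at 19, 12.5 and 16.5 CPM in Cpa3Cre/+ and at 37.5 and 40.2 CPM in Cpa3+/+ libraries, a difference of -1.28 ± 0.38 (unadjusted p = 0.00376, adjusted p = 0.524 by edgeR). The Lyz1 values given above differed by -1.48 ± 0.51 (unadjusted p = 0.00928, adjusted p = 0.524 by edgeR). For all 3 genes the genotypes did not overlap, but none passed the test after adjustment. Defa24, Defa17, Defa26 and Mmp7 did not overlap on day 5 either, and the share of all genes without overlap was not counted. Without Cpa3Cre/+ day 5 replicate 3 the differences were -1.19 for Lyz1, -1.36 for Defa5 and -1.32 for Nupr1 (adjusted p = 1 for each by edgeR). These 3 of 10 members compare with 9.26% of all genes at an unadjusted p under 0.05, and 0% of genes were called. The enterocyte sum on day 5 was 52230, 48493 and 109142 CPM in Cpa3Cre/+ and 30200 and 31748 CPM in Cpa3+/+ libraries, and the stem cell sum 1651, 1976 and 1005 CPM against 2185 and 2128 CPM, so these markers also separated the genotypes on that day. The enterocyte sum separated them in the other states named above as well, at 73383 and 88248 CPM in immunized Cpa3Cre/+ and 55156 and 54127 CPM in immunized Cpa3+/+ jejunum, and at 62118 and 41840 CPM against 77887, 90588 and 78183 CPM on day 1. In each of these states the genotype with less Lyz1 had more enterocyte transcripts, and their part in the differences was not tested. The other 2 states did not show this for Lyz1. In naive mice 0 of 15 enterocyte genes had a positive fitted difference (median log2 -0.70), while Lyz1 differed by 0.06 ± 0.52. On day 3 it was also 0 of 15 (median -0.28), while Lyz1 differed by 0.08 ± 0.60.

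**Figure D4:**
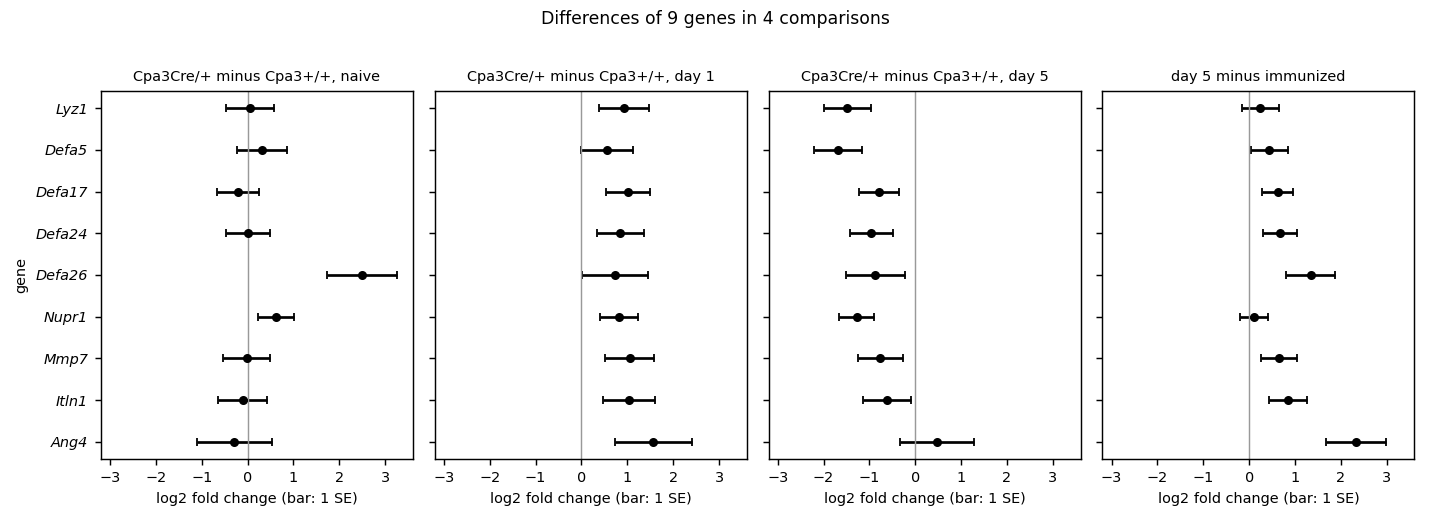
Log2 fold change with its SE (edgeR) of 9 of the 10 genes, Defa22 left out for its single library, in 4 comparisons. Most points lie above 0 on day 1 and below 0 on day 5, Defa26 stands out in naive mice at 2.50, and Ang4 stands out on day 5 against immunized at 2.33.

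With both genotypes averaged, immunized against naive jejunum gave 0 called members and 0% of all genes called. Defa26 was the 1 of 10 members with an unadjusted p under 0.05 (-1.40 ± 0.54, unadjusted p = 0.0189, adjusted p = 0.389 by edgeR), against 10.9% of all genes, and without Cpa3Cre/+ naive replicate 2 the value was -0.40 (adjusted p = 0.629 by edgeR). Day 1 against immunized gave 0% called genes, and Ang4 was the 1 member with an unadjusted p under 0.05 (1.36 ± 0.60, unadjusted p = 0.0372, adjusted p = 1 by edgeR), against 3.16% of all genes. Day 3 against immunized gave 0% called genes and 0 of 10 members with an unadjusted p under 0.05, against 9.58% of all genes.

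Ang4 had the largest fitted difference of the 10 between day 5 and the immunized state. In time order it was at 88.7 and 59.9 CPM in naive, 66.8 and 60.3 in immunized, 395 and 409 on day 1, 159 and 229 on day 3, and 1084, 705 and 90.4 CPM on day 5 in Cpa3Cre/+ jejunum. In Cpa3+/+ jejunum it was at 183, 83.0 and 31.7 CPM in naive, 141 and 161 in immunized, 131, 45.4 and 297 on day 1, 172 and 308 on day 3, and 287 and 614 CPM on day 5. In each genotype all day 5 libraries lay above all immunized libraries, and Cpa3Cre/+ day 5 replicate 3, at 90.4 CPM, lay close to them. Day 5 against immunized gave a log2 difference of 2.33 ± 0.65 (unadjusted p = 0.00214, adjusted p = 0.0703 by edgeR), which misses the threshold, while DESeq2 gave an adjusted p of 0.014 and edgeR without the sex term one of 0.0414. The call turns on single libraries: without Cpa3Cre/+ day 5 replicate 3 the edgeR value was 2.57 with an adjusted p of 0.00903, and without Cpa3+/+ day 1 replicate 2, which enters through the shared spread, 2.32 with 0.0453. Leaving out any other single library kept the adjusted p above 0.05, up to 0.276. Without the 3 libraries that stand apart, 4 of 10 members were called in this comparison, Ang4 (2.59, adjusted p = 0.00477 by edgeR), Defa26 (1.39, adjusted p = 0.00878), Mmp7 and Itln1, of 3294 genes called. With all libraries 0 of 10 members were called by edgeR, against 1.94% of all genes, and 2 of 10, Ang4 and Defa26 (1.34 ± 0.53, unadjusted p = 0.0213, adjusted p = 0.194), had an unadjusted p under 0.05, against 17.3% of all genes. All 10 fitted differences were positive, with a median of 0.66 against 0.02 over all genes, though that of Defa22, at 1.39 ± 11.75, has no meaningful sign. The difference in the day 5 response between the genotypes was 1.5 ± 1.23 for Ang4 (adjusted p = 1 by edgeR), and 0 of 10 members had an unadjusted p under 0.05 in that comparison, against 1.28% of all genes, with 0% called.

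Relative to Lyz1, Ang4 stood further from its unchallenged range than the other members did. Ang4 lay between 18.2 and 213 counts per 1000 Lyz1 counts in the 14 challenged libraries, with a median of 50.5, against 12.2 to 22.8 with a median of 16.0 in the 9 libraries of naive and immunized mice. The 2 lowest challenged libraries, Cpa3+/+ day 1 replicate 2 at 18.2 and Cpa3+/+ day 5 replicate 1 at 23.3, lay in or next to the unchallenged range. Defa24 also ran higher per Lyz1 count after challenge, with 735 to 1342 and a median of 1102 in challenged libraries, against 785 to 883 and a median of 813 in unchallenged ones. Of the 14 challenged libraries, Cpa3+/+ day 5 replicate 1, at 735, was the one below the unchallenged median. Mmp7 lay at 19.2 to 39.1 with a median of 23 in challenged libraries, against 14.3 to 23.2 with a median of 17.7, and Itln1 at 239 to 649 with a median of 358, against 242 to 358 with a median of 279. Defa5, at medians of 4.56 and 4.13, Nupr1, at 3.74 and 3.94, and Defa17, at 36.1 and 37.1, stayed close to Lyz1. These ratios were looked at after the levels were known and carry no test.

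**Figure D5:**
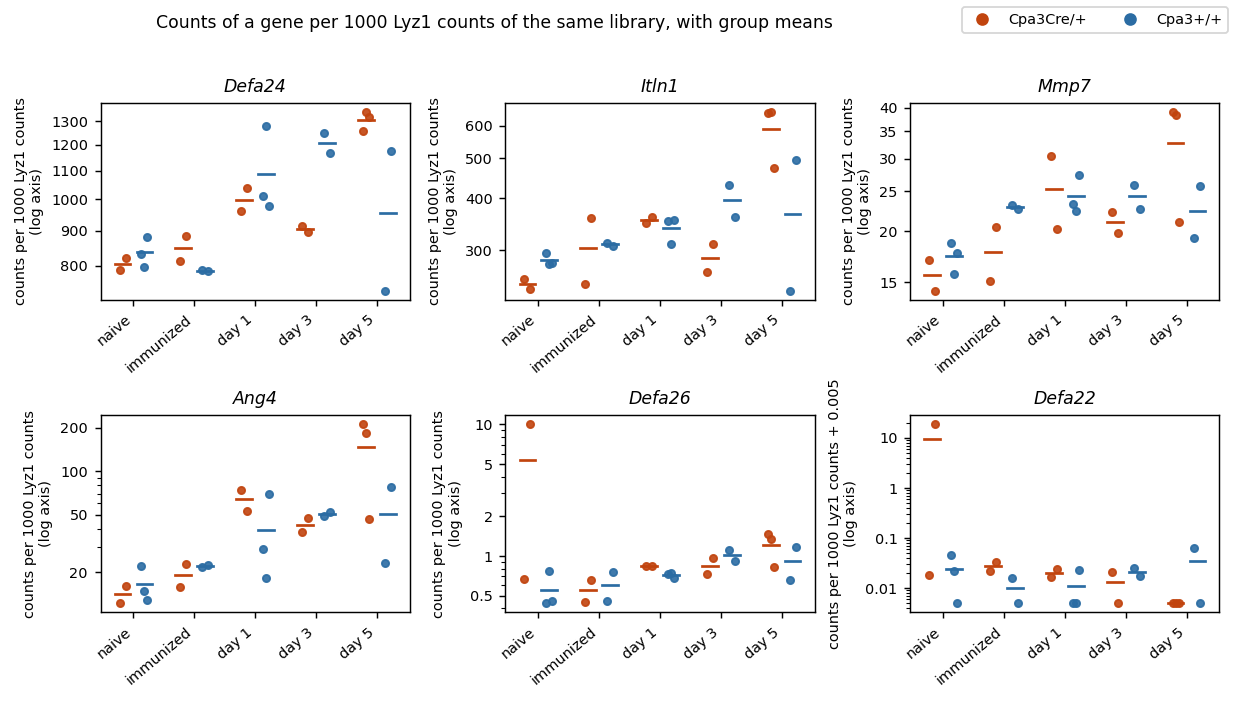
Counts per 1000 Lyz1 counts of the same library (log axes) for 6 members, by state and genotype, with bars for group means (Defa22 with 0.005 added). Ang4 reaches 213 on day 5, Defa24 keeps between 735 and 1342, and Defa26 and Defa22 stand out at 10.1 and 19.1 in 1 naive Cpa3Cre/+ library.

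Because the genotypes changed order between the immunized state and day 1, the difference between their day 1 responses was fitted after these values had been seen. All 10 fitted values were positive, with a median of 1.86 on the log2 scale against -0.01 over all genes. That of Defa22, at 0.86 ± 4.42, has no meaningful sign. By edgeR 7 of 10 members had an unadjusted p under 0.05, against 4.07% of all genes. No member was called by edgeR or DESeq2, and 0% of genes were called. Defa17 had the value with the lowest p (1.95 ± 0.66, unadjusted p = 0.00827, adjusted p = 0.845 by edgeR), followed by Mmp7 (2.15 ± 0.75, unadjusted p = 0.0105, adjusted p = 0.845). Without Cpa3+/+ day 1 replicate 2 these were 1.73 and 1.96 (adjusted p = 0.934 for both by edgeR). Over the fits that leave out 1 library the Defa17 value ran between 1.21, without Cpa3Cre/+ day 1 replicate 2, and 2.58, without Cpa3Cre/+ day 1 replicate 1. That of Defa24, 1.61 with all libraries, ran between 1.02, without Cpa3Cre/+ day 1 replicate 2, and 2.23, without Cpa3Cre/+ immunized replicate 1. The members share their libraries and largely followed each other, so the 7 are not 7 separate observations. The same difference for day 3 had 0 of 10 members with an unadjusted p under 0.05, against 1.42% of all genes, with 0% called.

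Of 33 further Paneth cell and secretory lineage genes, all tested, edgeR called 0 between the genotypes in any state and DESeq2 0. On day 1, 8 of the 33 were higher in Cpa3Cre/+ jejunum at an unadjusted p under 0.05 and 0 were lower, against 7.39% of all genes, with a median of 0.86 against 0.02 over all genes. On day 5 against immunized 3 of the 33 rose and 0 fell, against 1.94% of all genes, with a median of 0.22 against 0.02 over all genes. At an unadjusted p under 0.05, 9 were higher and 3 lower, against 17.3% of all genes. The 3 called by edgeR were Mptx1, a mucosal pentraxin (1.84 ± 0.42, adjusted p = 0.0324 by edgeR), Spink4, a small protease inhibitor of secretory cells (1.06 ± 0.26, adjusted p = 0.0457), and Cd24a, a surface glycoprotein (0.78 ± 0.18, adjusted p = 0.0378), while DESeq2 called 8 of the 33. Mptx1 was at 322, 313 and 65.3 CPM in Cpa3Cre/+ and 164 and 296 CPM in Cpa3+/+ jejunum on day 5, against 26.6 and 49.0 CPM in immunized Cpa3Cre/+ and 73.8 and 113 CPM in immunized Cpa3+/+ jejunum. The most abundant others by CPM, none called in that comparison, were Pla2g2a (0.73 ± 0.42), the lectin Reg3b (-2.40 ± 0.86), the peptide hormone precursor Guca2b (-0.58 ± 0.50) and the lectin Reg3g (-1.96 ± 0.56, adjusted p = 0.0764 by edgeR). Genes most like Defa22 in pattern were found at lower r than for Lyz1: Defa-ps7 of the same cluster at 0.819, then 4 genes at r of 0.679 or less and medians under 1 CPM, Gm2805, Gm12906, Gm4342 and Gm11196, and in counts this sparse such an r is no finding.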

How the data were processed

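RNA-seq was done on 23 jejunum samples. The deposited values are raw counts per gene; per the submitters' processing notes they come from STAR alignment to mm10 (GRCm38) and featureCounts of Subread 1.5.1, and per the labels' protocols RNA was extracted with a PureLink kit and libraries were made with a TruSeq stranded kit. The strand setting and the treatment of reads that fit several genes are not given in the sources used here. Ensembl IDs were matched to symbols for 55227 of 55487 genes; the other 260 held 0.00137% of counts.

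Counts were tested with edgeR 4.0.16 (TMM, robust quasi-likelihood, 10 group means and sex, 12 residual degrees of freedom, biological coefficient of variation 28.6%), after a filter that keeps genes above 0.724 CPM in at least 2 libraries, which left 17236. DESeq2 1.42.0 was an alternative. The edgeR fit was tested on simulated data, and the DESeq2 fit was not. P-values were adjusted over all tested genes by the Benjamini-Hochberg method, with a threshold of 0.05. Of 13 comparisons, 2 (the genotype differences of the day 1 and day 3 responses) were added after seeing the values, as were 2 sets of left-out libraries and the choice of cluster genes by their counts outside Cpa3Cre/+ naive replicate 2. The named genes were all 10 members, the genes of the defensin cluster, the 5 genes most like Lyz1 and Defa22, and of the other Paneth cell genes those called and the 5 most abundant. The members and lists were chosen with earlier results of these data known. Library totals of 5476308 to 19342046 counts (median 13809248) set the precision, and a count of 0 allows up to 3 counts, which covers counting error only. Replicates of a group differed by more than sampling noise, and no library was counted as a duplicate.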

Additional observations from a re-analysis of the deposited data

Results flagged for a closer look

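For 6 members, every Cpa3Cre/+ library moved one way between the immunized state and challenge day 1 and every Cpa3+/+ library the other way. The share of all tested genes with this pattern was not counted, so the 6 cannot be set against it. The mean CPM on day 1 over that of immunized mice was 1.88 in Cpa3Cre/+ and 0.548 in Cpa3+/+ jejunum for Lyz1, 1.90 and 0.640 for Defa5, and 2.23 and 0.603 for Defa17. It was 2.25 in Cpa3Cre/+ and 0.736 in Cpa3+/+ jejunum for Defa24, 2.67 and 0.589 for Mmp7, and 2.31 and 0.609 for Itln1. The difference between the genotypes' responses, tested afterwards, had an adjusted p of 0.845 for each of these 6 genes by edgeR. The 6 share their libraries and went with Lyz1, so they are not separate observations. The ratios of mean CPM are not adjusted for sex. Each of the Cpa3Cre/+ groups compared here held 1 male, against 0 in the Cpa3+/+ groups.

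Between the immunized state and day 3 the same was seen for 4 members, and the share of all genes was again not counted. The ratio of mean CPM was 2.02 in Cpa3Cre/+ and 0.693 in Cpa3+/+ jejunum for Defa5, 1.91 and 0.803 for Defa17, and 1.60 and 0.719 for Mmp7. For Defa22 it was 0.465 in Cpa3Cre/+ and 2.06 in Cpa3+/+ jejunum, with levels under 0.1 CPM in every one of those libraries, below what a count of 0 allows. The test of the difference between the responses gave an adjusted p of 1 for each of the 4 by edgeR.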

How the results depend on the processing

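No member was called in any of the 13 comparisons with DESeq2 size factors, female libraries alone, the replicate block, or the 3 libraries with follicle transcripts left out. With no filter on low counts, edgeR called 49 genes for the genotype average, 166 in naive mice (2 members, Defa22 and Defa26), 77 in immunized mice, 233 on day 1 (1, Ang4), 49 on day 3 and 466 on day 5 (4, Lyz1, Defa5, Defa22 and Nupr1). It then called 578 for immunized against naive (1, Defa26), 124 for day 1 against immunized (1, Ang4), 284 for day 3 (1, Ang4) and 906 for day 5 (2, Ang4 and Defa26), and 43, 202 (5 members) and 69 for the genotype differences of the day 5, day 1 and day 3 responses; the cause was not tested. DESeq2 called 8 genes for the genotype average, 3 on day 1, 7 on day 3, 15 on day 5, 35 for immunized against naive, 18 for day 3 against immunized and 957 for day 5 against immunized (1 member, Ang4); the cause was not tested. Without the sex term 1 member, Ang4, was called on day 5 against immunized.

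Female libraries alone gave 0 genes for the genotype average, 3 on day 5, 979 for immunized against naive and 82 for day 5 against immunized. The fitted Defa22 difference in naive mice was -0.98 with female libraries alone and -0.49 without Cpa3Cre/+ naive replicate 2. Both settings leave out that library, which holds the Defa22 counts. The Cpa3Cre/+ naive group is then replicate 1 with 1 count, so the sign carries no meaning. Female libraries alone also leave 1 Cpa3Cre/+ library after immunization, 1 on day 1 and 1 on day 3. Over the fits that leave out 1 library the Defa22 difference in naive mice ranged up to 9.80 (without Cpa3Cre/+ naive replicate 1). Whether replicate numbers pair the samples is not settled. Deviations of same-numbered libraries correlated between -0.318 and 0.436, and in a group of 2 libraries the deviations only mirror each other. With the replicate block 0 genes were called for the genotype average, 2 for immunized against naive and 149 for day 5 against immunized.

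Without the 3 libraries that stand apart, 0 genes were called for the genotype average, 7 in naive mice (2 members, Defa22 and Defa26), where the Cpa3Cre/+ arm is then replicate 2 alone and is assumed to vary like the other groups, 1 on day 5, 43 for immunized against naive (1, Defa26) and 3294 for day 5 against immunized (4 members). Without the 3 follicle libraries, 0 were called for the genotype average and 34 for day 5 against immunized. Leaving out 1 library at a time gave 0 to 7 genes for the genotype average, 0 to 5 in naive mice (0 to 1 members), 0 to 2 on day 5, 0 to 627 for immunized against naive (627 without Cpa3Cre/+ naive replicate 2) and 28 to 1305 for day 5 against immunized (28 without Cpa3+/+ immunized replicate 2, 1305 without Cpa3Cre/+ day 5 replicate 3; 0 to 1 members). The genes most like Defa22 were not stable: 2 of 5 were shared with a pseudocount of 0.25 CPM and 0 of 5 over all genes with a count. Of the 5 genes most like Lyz1, 3 were shared without Cpa3+/+ day 1 replicate 2, the fewest when 1 library at a time was left out. Few libraries per group and near-identical defensin copies limit what these counts resolve.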
